A study of Mus musculus with 37 samples.

Results

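The data describe open chromatin in the unbound fraction (UF) of nuclei from the mouse nucleus accumbens after repeated amphetamine (AMPH) or saline. UF is the supernatant left when nuclei carrying the GFP-tagged nuclear envelope protein Sun1 are pulled down with an antibody to GFP (IP). The tag was switched on by Cre under control of Pvalb, so the pulldown takes parvalbumin (PV) interneurons and UF keeps the rest of the tissue. The libraries were chosen by their labels alone: 4 UF libraries of mice given AMPH (Iso1-1, Iso1-2, Iso1-3 and Iso2-1) and 4 of mice given saline (Iso1-1, Iso1-2, Iso2-1 and Iso2-2), together 8 of the 37 libraries of the series. AMPH or saline was given on each of 6 days and nuclei were taken 24 h after the last dose; the series text gives the AMPH dose as 3 mg/kg. All mice of both groups, and of the other PV groups used here, were Pvalb-IRES-Cre x INTACT compound heterozygotes, 60 to 210 days old. Each library came from both accumbens of 1 mouse. All isolation buffers contained the histone deacetylase inhibitor sodium butyrate. The labels do not say what the number after Iso stands for, and it is used here as a term of each 24 h fit. Set beside these libraries are 7 IP libraries of the same experiment (4 after AMPH, 3 after saline) and 8 UF libraries taken 60 min after a single injection (4 after AMPH, 4 after saline). The 8 IP libraries at 60 min (4 after AMPH, 4 after saline) are used for the share of counts in 1 cluster and for a ranking of regions that follow it.

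AMPH makes dopamine terminals release dopamine, and the accumbens is one of the regions where repeated doses change later behaviour. Most neurons there are spiny projection neurons (SPNs), which carry either the D1 dopamine receptor, coupled to a rise in cAMP, or the D2 receptor, coupled to its fall. Through cAMP, protein kinase A and the factor CREB, dopamine turns on immediate early genes such as Fos, and FosB products are known to build up with repeated doses. ATAC-seq reads out open chromatin: the transposase Tn5 cuts where DNA is accessible, and reads are counted in regions of 200 bp (mm10). In a mixture of nuclei, fewer nuclei of a type and less open chromatin per nucleus cannot be told apart.

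The 8 libraries held 2247275 to 6004421 counts after AMPH and 768921 to 3518965 after saline (4.67 ± 1.68 M and 2.36 ± 1.33 M, where M is the SI prefix mega, SD, n = 4 each; two-sided exact permutation p = 0.0857, smallest possible 0.0286). Without AMPH library Iso1-3 the difference was 3.11 M (exact permutation p = 0.0286). Saline library Iso1-1 is the shallowest and had 0 counts in 35.3% of the regions. Saline library Iso2-1 stood more than 4-fold below all others at 40 of the 11202 regions with a mean of at least 20 CPM (counts scaled by library size) and above all others at 3, and saline library Iso1-1 at 7 and 12, while no other library did so at any. Pvalb, the gene of the calcium-binding protein that marks the pulled-down cells, had 7.36 ± 2.49 CPM in UF after AMPH and 7.44 ± 1.79 CPM after saline (n = 4 each), against 47.1 ± 4.92 CPM (n = 4) and 53.0 ± 5.07 CPM (n = 3) in IP. Ppp1r1b, which encodes the SPN phosphoprotein DARPP-32, had 122 ± 19.9 CPM after AMPH and 107 ± 15.8 CPM after saline in UF, and 61.5 ± 5.42 and 64.7 ± 16.3 CPM in IP. The 20 genes shared by SPNs summed to 2400 to 2590 CPM after AMPH and 1980 to 2530 CPM after saline in UF, above the 1770 to 1900 and 1730 to 1840 CPM of IP. The lists of D1 and of D2 SPN genes overlapped between UF and IP, and Adora2a, the adenosine receptor gene of D2 SPNs, had 15.4 ± 3.31 and 11.8 ± 4.43 CPM in UF and 15.6 ± 4.83 and 15.8 ± 1.59 CPM in IP.

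Of 64477 regions tested, 34 were called lower after AMPH and none higher (0.0527% called; edgeR quasi-likelihood test with an Iso term, Benjamini-Hochberg adjusted p under 0.05). Of these 34 regions, 30 lie side by side at the very start of the assembled chromosome 9, and 4 lie elsewhere: inside Chl1, Hspa2 and Ano2 and near Pak3. Without adjustment, 2451 regions had p under 0.05 (3.8%), 1212 of them higher and 1239 lower after AMPH. Among 17935 regions within 1 kb of a transcription start 1 was called, among 26710 farther inside genes 2, and among 13465 outside genes but within 100 kb of one 1. The 4241 regions more than 100 kb from any protein-coding gene held the other 30. With the Iso1 libraries alone (3 AMPH, 2 saline) 100 regions were called (99 lower), and with the Iso2 libraries alone (1 AMPH, 2 saline, the lone AMPH library assumed to vary like the others) 23 were. With 1 library left out, 52 were called without AMPH library Iso2-1, 69 without saline library Iso2-1 and 52 without saline library Iso2-2. DESeq2 called 60 lower, the 34 among them, and 166 higher; all 166 had 0 counts in every saline library, a median of 7 counts over the 8 libraries, and were under the count filter of the edgeR test.

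**Figure D1:**
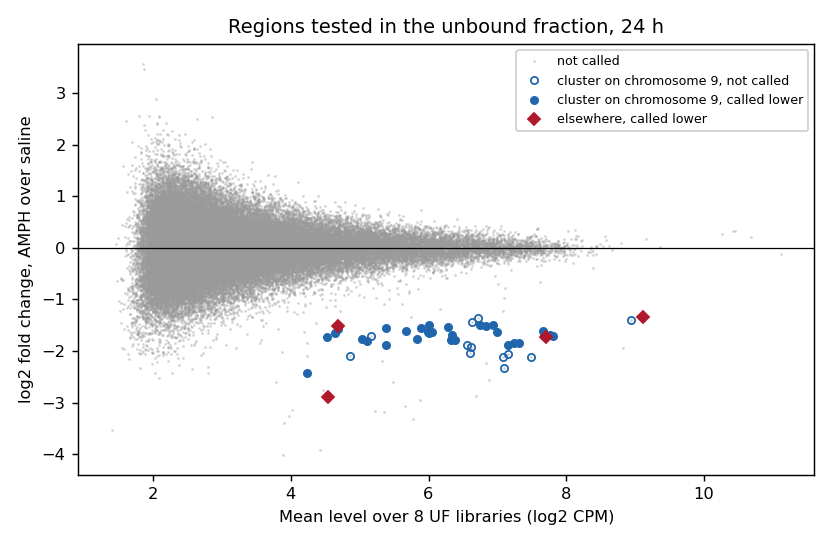
Each point is 1 of the 64477 tested regions, placed by its mean level over the 8 UF libraries (log2 CPM, horizontal) and by its log2 fold change, AMPH over saline (vertical). Blue circles mark the cluster on chromosome 9, filled where called, and red diamonds mark the 4 regions called elsewhere; all 34 called regions lie below 0.

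The chromosome 9 cluster holds 42 regions over 37.5 kb, from mm10 chr9:3000518-3037972, and the next region of the table starts 221 kb farther on. The assembled sequence of mouse chromosome 9 opens with copies of the major satellite, the tandem repeat of pericentromeric heterochromatin, which is compacted in most cells. Because satellite copies are nearly alike, reads placed on 1 copy may come from another, also from other chromosomes, and the 42 regions cannot be taken as 42 independent sites. All 42 were tested and all had lower fitted levels after AMPH, with log2 fold changes of -2.42 to -1.37 (median -1.70). The call was made for 30, and in 38 of the 42 (90.5%) every AMPH library was below every saline library, against 1652 of all 64477 regions (2.56%) in which the groups did not overlap in either direction. The nearest protein-coding gene, Alkbh8, lies 300,676 bp from the region at chr9:3034355.

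The share of each library's counts that fell in the cluster was 0.197% (Iso1-1), 0.146% (Iso1-2), 0.212% (Iso1-3) and 0.171% (Iso2-1) after AMPH. After saline it was 0.636% (Iso1-1), 0.654% (Iso1-2), 0.622% (Iso2-1) and 0.405% (Iso2-2). The groups did not overlap: the highest AMPH share, of Iso1-3, is below the lowest saline share, of Iso2-2, and the same order held among the Iso1 and among the Iso2 libraries. The group means were 0.182 ± 0.0291% after AMPH and 0.579 ± 0.117% after saline (SD, n = 4 each), a ratio of 0.313. The cluster was picked out by these same calls, so the share is given as a description with no test.

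**Figure D2:**
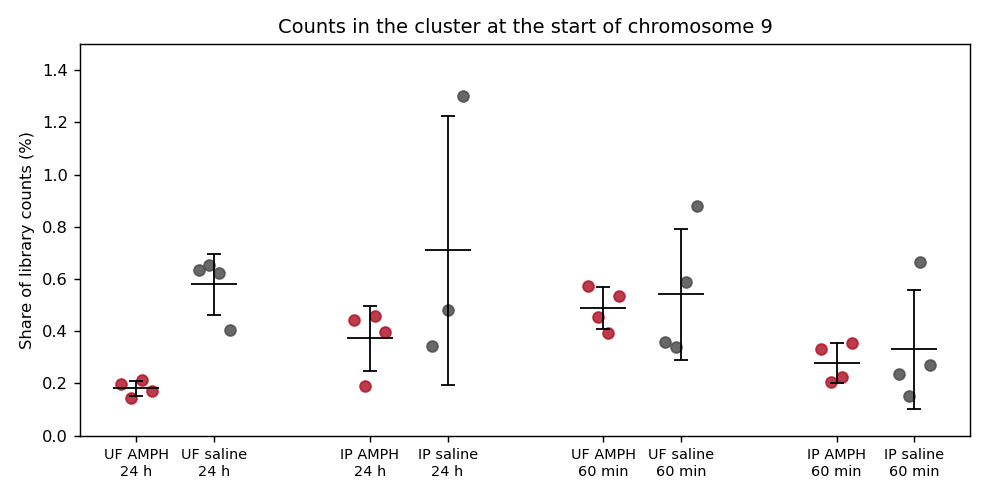
Points give the share of a library's counts (%) that fell in the chromosome 9 cluster, with the group mean and SD as a black bar, for UF and IP at 24 h and at 60 min. In UF at 24 h the 4 AMPH libraries lie between 0.146 and 0.212% and the 4 saline libraries between 0.405 and 0.654%; in the other 3 pairs of groups the libraries overlap.

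Single regions show how even the difference is. At chr9:3017891-3018090, AMPH libraries had 33.7, 25.3, 34.6 and 41.7 CPM and saline libraries 131, 99.8, 91.4 and 66.0 CPM (log2 fold change -1.50 ± 0.20 SE, adjusted p = 8.58e-06, edgeR). At chr9:3014115-3014314, AMPH libraries had 83.4, 56.1, 67.2 and 71.8 CPM and saline libraries 260, 260, 301 and 178 CPM (-1.85 ± 0.16, adjusted p = 1.44e-09). In both the lowest saline library stands clear of the highest AMPH library. The lowest fold change of the cluster was at chr9:3034355-3034554, with 6.52, 5.97, 7.87 and 3.73 CPM after AMPH and 34.2, 18.0, 60.3 and 16.1 CPM after saline (-2.42 ± 0.41, adjusted p = 0.00183). That region was not called without AMPH library Iso2-1 (adjusted p = 0.238), without saline library Iso1-1 (0.102) or without saline libraries Iso1-1 and Iso2-1 together (0.179).

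The 12 cluster regions that were not called had log2 fold changes of the same size, -2.32 to -1.37, and larger standard errors, 0.27 to 0.61 against 0.15 to 0.41 in the 30. In all 12, saline library Iso2-1 was the highest saline library (9) or the lowest (3), as it was in 11 and 10 of the 30. At chr9:3000518-3000717 the AMPH libraries had 280, 213, 374 and 251 CPM and the saline libraries 940, 1020, 222 and 625 CPM (-1.40 ± 0.43, adjusted p = 1); here saline library Iso2-1 lies among the AMPH libraries and the groups overlap. At chr9:3020891-3021090 the AMPH libraries had 52.3 to 77.1 CPM, and the saline libraries 145 to 247 CPM apart from Iso2-1 at 574 CPM. Without saline library Iso2-1 all 42 regions were called lower, and the lowest number with any 1 library left out was 26. Within the Iso1 libraries 42 were called and within the Iso2 libraries 16. With the IP libraries in the same fit, so that all 15 libraries of the table set the spread, 3 cluster regions were called (median log2 fold change -1.60), and 6 regions in all.

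**Figure D3:**
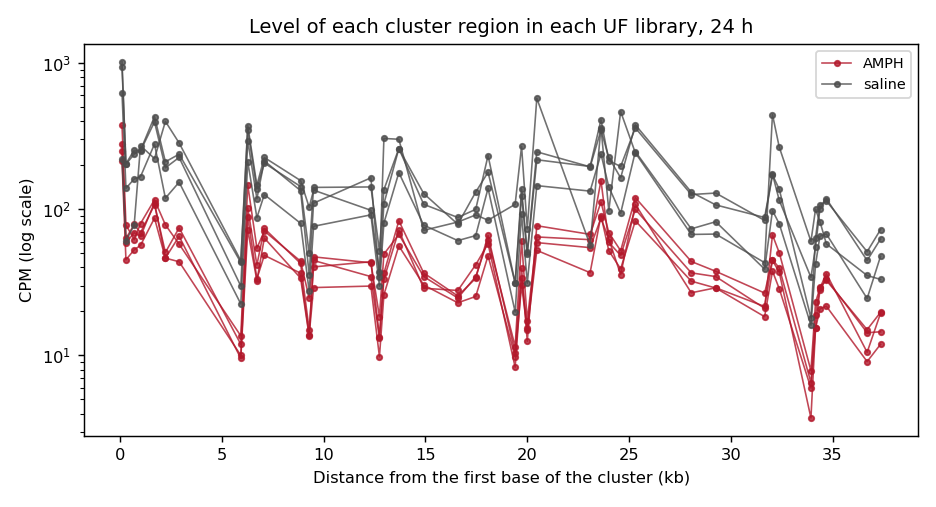
Each line is 1 UF library at 24 h, and each point its level (CPM, log scale) in 1 of the 42 cluster regions, placed by distance from the first base of the cluster (kb). The AMPH lines run below the saline lines along the whole cluster, except where saline library Iso2-1 dips to or under the AMPH level, as at the first region.

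At 24 h the UF groups differed in mean depth as well as in this share. The 3 deepest libraries, all AMPH, held 4860327 to 6004421 counts and had shares of 0.146 to 0.197%, while the 4 saline libraries are all shallower. AMPH library Iso1-3, with 2247275 counts, had 0.212%, and the saline libraries next to it in depth, Iso1-2 with 1764275 and Iso2-1 with 3403786 counts, had 0.654 and 0.622%. In IP at 24 h the deepest library, with 9655838 counts, had the lowest share, 0.189%, and the shallowest, with 650666 counts, the highest, 1.30%. At 60 min the order was mixed. In IP the deepest library there, with 9566838 counts, had the highest share, 0.664%, and the shallowest, with 1386842 counts, had 0.354%. In UF the deepest, with 15120963 counts, had 0.455% and the shallowest, with 4241254 counts, had 0.536%. With every library thinned at random to the same total, 33 of the 41 cluster regions that could be tested were called lower (median log2 fold change -1.70). Random thinning leaves the expected share of each library as it was, so it cannot show whether the share depends on depth. What part depth has in the share was not tested.

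The cluster was also measured in the other PV groups. In IP at 24 h the shares were 0.444, 0.189, 0.459 and 0.399% after AMPH and 0.345, 0.483 and 1.30% after saline (two-sided exact permutation p = 0.229; smallest possible 0.0286). The groups overlap, and the 1.30% comes from the shallowest IP library. The fitted log2 fold changes in IP were all below 0, from -1.05 to -0.45 (median -0.89), and none was called; 2 of 42 had p under 0.05. The difference between the AMPH effects, UF minus IP, had a median of -0.77 and was called in none of the 42 (6 with p under 0.05; lowest adjusted p = 0.944), so the decrease is not shown to be larger in UF than in IP. At 60 min after a single dose, the UF shares were 0.490 ± 0.0798% after AMPH and 0.542 ± 0.251% after saline (n = 4 each, exact permutation p = 0.8), none of 44 regions was called and the median log2 fold change was -0.19.

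Regions elsewhere were ranked by how closely they followed the cluster. Over the 16 PV libraries at 60 min, of both fractions and treatments, the level of chr12:3109781-3109980 followed the cluster share with Pearson's r of 0.999. With 0.998 came chr9:35305553-35305752, which has no counterpart in the 24 h table, and the next of 6170 regions had 0.894. Of the 20 regions with the highest r (0.83 or more), 16 were tested at 24 h. Of these 16, 10 were lower after AMPH and none was called (median log2 fold change -0.0667). The region on chromosome 12 lies 137,447 bp from Rab10. At 24 h it had 182, 144, 270 and 166 CPM after AMPH and 687, 742, 970 and 471 CPM after saline (log2 fold change -1.95 ± 0.27, adjusted p = 0.127). Its groups do not overlap, and although it is not among the 34, it was called in 11 of 20 alternatives. These were DESeq2 (adjusted p = 2.74e-05), no count filter, the Iso1 or the Iso2 libraries alone, the replicate block, thinning, and leaving out AMPH library Iso1-2 or Iso1-3, saline library Iso2-1 or Iso2-2, or saline libraries Iso1-1 and Iso2-1 together.

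The strongest call outside the cluster lies in Chl1, which encodes a cell adhesion protein of the L1 family that acts in neurite growth (chromosome 6, 103510584 to 103733038). The region at chr6:103649218-103649417, inside the gene and far from its start, had 406, 356, 261 and 293 CPM after AMPH and 862, 1120, 536 and 634 CPM after saline. Every AMPH library was below every saline library (log2 fold change -1.34 ± 0.14 SE, adjusted p = 3.76e-08, edgeR). Of the 21 regions counted for Chl1, 6 passed the count filter. The tested region nearest the start, at chr6:103512268-103512467, had 20.1, 25.8, 29.9 and 25.1 CPM after AMPH and 37.2, 16, 31.7 and 23.8 CPM after saline (-0.05 ± 0.28). The called region stood far above the others of the gene in level, and whether its reads map to 1 place only was not tested. The called region holds most of the gene's counts: summed over the gene, Chl1 had 435, 389, 290 and 350 CPM after AMPH and 867, 1070, 583 and 634 CPM after saline (-1.17 ± 0.15), and with that region left out the gene's log2 fold change was -0.01 ± 0.17. In IP the region differed by -0.92 ± 0.66 and in UF at 60 min by -0.11 ± 0.56, neither called. The region was not called without the Iso term (adjusted p = 0.416), within the Iso2 libraries (-0.98, adjusted p = 0.797), with all 15 libraries (adjusted p = 0.768) or with limma after cyclic loess scaling (adjusted p = 0.934).

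The region at chrX:143482958-143483157 lies outside genes, 35,208 bp from Pak3, a kinase that acts on the actin of dendritic spines. It had 100, 127, 99.2 and 75.3 CPM after AMPH and 257, 375, 425 and 206 CPM after saline, again without overlap (-1.73 ± 0.20, adjusted p = 2.85e-05, edgeR). No tested region of the 8 within Pak3 was called or had p under 0.05. Without AMPH library Iso1-3 its adjusted p was 0.162, with limma after cyclic loess scaling 0.859, with all 15 libraries 0.673 and with thinned counts 0.347.

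Hspa2 encodes an HSP70 chaperone best known from male germ cells. The region at chr12:76404897-76405096 lies inside this gene, 526 bp from its start, and is the 1 called region within 1 kb of a start. It had 15, 10.5, 14.2 and 15.1 CPM after AMPH and 72.9, 39.2, 22.4 and 25.8 CPM after saline (-1.51 ± 0.28, adjusted p = 0.00728, edgeR). The groups do not overlap, but the saline libraries differ widely among themselves, and the highest is the shallowest library. It lost its call in 7 of 20 alternatives: without saline library Iso1-1 (adjusted p = 0.728), saline library Iso1-2 (0.0654), AMPH library Iso1-1 (0.0661) or AMPH library Iso1-2 (0.0811), without saline libraries Iso1-1 and Iso2-1 together (0.131), with all 15 libraries (0.939), and within the Iso2 libraries, where the log2 fold change was -0.66. A region upstream of that start, though inside the gene span used for counts, lies at chr12:76403973-76404172. It was not called and had 107, 103, 103 and 129 CPM after AMPH and 104, 91.8, 99.3 and 104 CPM after saline (0.19 ± 0.16).

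The 250 bases before the start of both genes are shown because a called region lies in each gene while the tested region upstream of the start, which shares 53 bases with the window, was not called (Hspa2) or the window held no region that passed the filter (Chl1). They are from RefSeq, build GRCm38.p6, and both windows lie inside the gene spans used for counts. Capitals mark the GC box GGGCGG, the CCAAT box CCAAT and the TATA box TATAAA, read on both strands; of 27025 promoters of that length 32.9%, 34.5% and 13.0% hold them. Hspa2, plus strand, chr12:76404120-76404369, holds 3 GC boxes and 1 CCAAT box, and Chl1, plus strand, chr6:103510626-103510875, holds none of these letters in this window.
Hspa2: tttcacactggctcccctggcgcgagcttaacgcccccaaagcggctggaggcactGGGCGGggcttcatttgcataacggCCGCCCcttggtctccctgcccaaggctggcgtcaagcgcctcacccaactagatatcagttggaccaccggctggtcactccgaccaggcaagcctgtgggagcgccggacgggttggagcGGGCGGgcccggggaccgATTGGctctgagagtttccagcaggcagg
Chl1: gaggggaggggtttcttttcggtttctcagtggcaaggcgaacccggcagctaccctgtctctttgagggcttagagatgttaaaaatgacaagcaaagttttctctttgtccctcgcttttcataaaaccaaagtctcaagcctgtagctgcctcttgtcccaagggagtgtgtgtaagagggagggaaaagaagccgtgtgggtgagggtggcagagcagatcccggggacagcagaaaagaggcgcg

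The fourth region, chr6:125876977-125877176 in Ano2, the gene of a calcium-activated chloride channel, was called although its groups overlap. AMPH libraries had 4.79, 6.21, 18.4 and 1.87 CPM and saline libraries 116, 57.2, 5.52 and 5.03 CPM (-2.89 ± 0.40, adjusted p = 0.000254, edgeR). The high levels are those of saline libraries Iso1-1 and Iso1-2, and the Iso2 saline libraries lie among the AMPH libraries. It was not called without the Iso term, within the Iso2 libraries or with all 15 libraries.

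**Figure D4:**
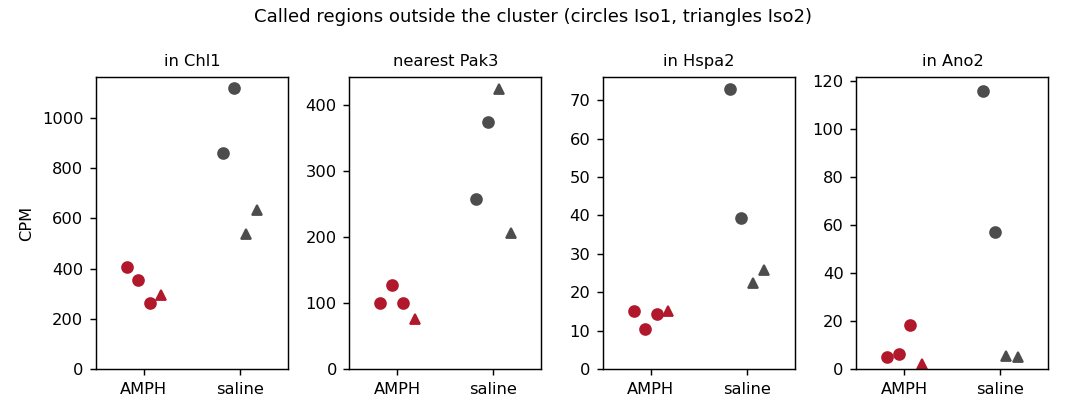
Level (CPM) of the 4 called regions outside the chromosome 9 cluster in each UF library at 24 h, AMPH left and saline right, circles for Iso1 and triangles for Iso2 libraries. In Chl1, near Pak3 and in Hspa2 the groups do not overlap, while in Ano2 only the Iso1 saline libraries, at 116 and 57.2 CPM, stand apart.

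Summed over gene bodies with 2 kb on either side, no gene of 15788 tested was called (0% called; edgeR, lowest adjusted p = 0.321, for Chl1). Without adjustment 560 genes had p under 0.05 (3.55%), 255 higher and 305 lower, and DESeq2 called 1, Chl1 (-1.17 ± 0.13, adjusted p = 1.09e-14). In 361 genes (2.29%) every AMPH library was on one side of every saline library. The gene values were the more precise ones: the median log2 fold change was -0.0039, the median SE 0.202, and for 13246 genes (83.9%) the whole 95% interval lay within a 2-fold change either way. For 8503 genes (53.9%) it lay within 1.5-fold. For single regions the interval lay within 2-fold in 18447 (28.6%). Within the Iso1 libraries alone 6 genes were called lower (Gm17660, Acacb, Chl1, Ano2, Il31ra and Gabre), and within the Iso2 libraries alone none. With 1 library left out, Chl1 was called without AMPH library Iso1-3, saline library Iso1-2 or saline library Iso2-1, and Chl1 and Acacb without AMPH library Iso2-1.

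Beside the genome-wide count, 26 lists of 383 genes for reward signalling, neuronal activity and cell identity were followed. Of these 383 genes 360 passed the filter, 8 had p under 0.05 without adjustment and none was called, while for 305 the 95% interval lay within a 2-fold change. Over all genes tested, 49.2% had a log2 fold change above 0. The counts above 0 in single lists were not tested against this share.

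Genes of dopamine reception came first. Of 10 genes of D1 SPNs, 11 of D2 SPNs and 20 shared by SPNs, all were tested and none had p under 0.05; the medians of their log2 fold changes were 0.0471, 0.008 and 0.0528, against -0.0039 over all genes. Drd1, the D1 dopamine receptor, had 24.8, 23.4, 21.3 and 28.8 CPM after AMPH and 17.8, 11.9, 30.7 and 18.1 CPM after saline (0.49 ± 0.27, 95% interval -0.05 to 1.04). The AMPH libraries lie close together while saline library Iso2-1 is the highest of all 8. Drd2, the D2 receptor, had 39.6, 48.3, 44.5 and 54.2 CPM after AMPH and 30.1, 37.0, 40.3 and 73.6 CPM after saline (0.17 ± 0.21), and the saline libraries enclose the AMPH libraries. Tac1, the substance P precursor of D1 SPNs, had 7.30, 13.1, 11.6 and 8.65 CPM after AMPH and 2.74, 5.97, 3.52 and 8.89 CPM after saline (0.82 ± 0.44, adjusted p = 0.999, edgeR). Only saline library Iso2-2 reached the AMPH level. Penk, the enkephalin precursor of D2 SPNs, averaged 25.8 ± 5.43 CPM after AMPH and 31.5 ± 7.31 CPM after saline (-0.25 ± 0.25). The 20 genes of dopamine and cAMP signalling had a median of 0.0485 and none with p under 0.05. Among them, the adenylyl cyclase gene Adcy5 had 205, 190, 198 and 173 CPM after AMPH and 238, 194, 199 and 209 CPM after saline (-0.16 ± 0.10). Pde10a, the striatal phosphodiesterase, differed by 0.10 ± 0.09 and Crem, a CREB-family regulator induced by cAMP, by -0.01 ± 0.13.

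All 20 immediate early genes were tested, 12 were above and 8 below 0, none had p under 0.05, and their median was 0.0308. All 20 had a 95% interval within a 2-fold change. Fosb, whose products are the ones known to build up over repeated doses, had 86.0, 106, 116 and 88.7 CPM after AMPH and 95.8, 96.7, 147 and 91.4 CPM after saline (-0.12 ± 0.16, 95% interval -0.45 to 0.21). Saline library Iso2-1 is the highest and the other 7 are mixed. Fos, the partner of Jun proteins in AP-1, had 27.3, 31.3, 34.3 and 31.0 CPM after AMPH and 19.2, 47.7, 63.0 and 24.2 CPM after saline (-0.34 ± 0.28). The saline libraries lie on both sides of the AMPH libraries. Arc, which trims AMPA receptors from synapses, had 123, 144, 156 and 136 CPM after AMPH and 98.5, 119, 119 and 143 CPM after saline (0.23 ± 0.13, adjusted p = 0.999, edgeR), with 1 saline library among the AMPH ones. Junb differed by -0.12 ± 0.13, Nr4a1, a nuclear receptor of the early response, by 0.10 ± 0.16 and Npas4, an activity-dependent factor, by 0.05 ± 0.11.

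The promoters of 4 of these genes and of Tac1 are printed, since CREB sites are the known route by which cAMP and calcium act on such genes. Each line gives the 250 bases before the start (RefSeq, GRCm38.p6), and capitals mark the CREB core site TGACG, or CGTCA on the other strand. The full site TGACGTCA, the AP-1 site TGANTCA and the CArG box were searched on both strands too and were not found in these 5 windows. Fos is from the plus strand, chr12:85473640-85473889, Fosb from the minus strand, chr7:19310046-19310295, and Junb from the minus strand, chr8:84978749-84978998. Nr4a1 is from the plus strand, chr15:101266596-101266845, and Tac1 from the plus strand, chr6:7554811-7555060. The tested region with the most overlap does not cover every marked site: it holds 1 of 2 in Fos, 0 of 1 in Fosb, 1 of 1 in Junb, 2 of 4 in Nr4a1 and 1 of 2 in Tac1.
Fos: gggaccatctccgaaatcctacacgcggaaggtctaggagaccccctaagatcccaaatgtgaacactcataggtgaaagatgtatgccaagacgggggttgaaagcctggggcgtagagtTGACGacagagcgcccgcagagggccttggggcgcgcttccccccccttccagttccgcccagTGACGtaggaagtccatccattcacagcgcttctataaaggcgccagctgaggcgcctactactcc
Fosb: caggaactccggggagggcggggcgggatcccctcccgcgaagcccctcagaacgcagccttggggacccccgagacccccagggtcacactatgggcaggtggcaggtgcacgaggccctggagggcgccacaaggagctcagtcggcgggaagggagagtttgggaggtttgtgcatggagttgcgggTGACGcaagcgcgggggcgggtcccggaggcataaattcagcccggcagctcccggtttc
Junb: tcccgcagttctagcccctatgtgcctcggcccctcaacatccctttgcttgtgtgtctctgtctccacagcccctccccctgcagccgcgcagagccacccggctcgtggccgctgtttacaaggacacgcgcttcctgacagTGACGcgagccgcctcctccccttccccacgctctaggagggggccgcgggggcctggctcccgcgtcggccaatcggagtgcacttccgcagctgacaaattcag
Nr4a1: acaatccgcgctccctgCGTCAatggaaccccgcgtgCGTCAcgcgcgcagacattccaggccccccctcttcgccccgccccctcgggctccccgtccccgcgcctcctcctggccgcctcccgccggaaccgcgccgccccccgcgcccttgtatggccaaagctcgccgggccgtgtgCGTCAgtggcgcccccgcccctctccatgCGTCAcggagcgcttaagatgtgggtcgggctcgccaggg
Tac1: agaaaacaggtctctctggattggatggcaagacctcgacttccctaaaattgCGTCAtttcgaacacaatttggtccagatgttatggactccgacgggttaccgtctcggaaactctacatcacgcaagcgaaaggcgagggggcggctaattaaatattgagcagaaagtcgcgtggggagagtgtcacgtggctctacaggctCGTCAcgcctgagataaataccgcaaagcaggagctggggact

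The region over the Fos promoter, at chr12:85473771-85473970, had 8.63, 13.6, 12.1 and 4.98 CPM after AMPH and 7.44, 18.0, 22.8 and 9.05 CPM after saline (log2 fold change -0.79 ± 0.41, adjusted p = 1, edgeR). The groups overlap. For Fosb, the region that holds the marked site, chr7:19309963-19310162, had 0.383, 2.63, 4.72 and 4.15 CPM after AMPH and 0, 0.665, 5.17 and 2.01 CPM after saline and did not pass the filter. The tested region upstream of it, chr7:19310279-19310478, shares only 17 bases with the printed window and had 23.6, 24.8, 37.3 and 20.3 CPM after AMPH and 17.9, 27.3, 45.2 and 31.9 CPM after saline (-0.22 ± 0.28). The region at the Junb promoter differed by -0.06 ± 0.19 and that at the Nr4a1 promoter by 0.09 ± 0.20, while that at the Tac1 promoter had 4.41, 10.5, 9.45 and 8.09 CPM after AMPH and 2.98, 4.66, 1.72 and 6.71 CPM after saline (0.96 ± 0.52, adjusted p = 1). None of the 9818 promoter regions tested across the genome was called; their median log2 fold change was 0.00665 and 3.33% had p under 0.05. Of 27025 promoters 1.62% hold TGACGTCA, 17.9% TGACG, 6.87% TGANTCA and 1.40% a CArG box. The median log2 fold change was -0.0198 over the 301 tested promoter regions with TGACGTCA, -0.002 over 2881 with TGACG, 0.0343 over 373 with TGANTCA and 0.0194 over 97 with a CArG box.

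Late response and plasticity genes were spread on both sides of 0, with 10 of 20 above 0 and a median of -0.00485. Dbp, a clock-controlled factor, was the only one of the 20 with p under 0.05, with 331, 255, 261 and 322 CPM after AMPH and 259, 241, 277 and 246 CPM after saline (0.23 ± 0.10, adjusted p = 0.999, edgeR), and its groups overlap. Bdnf, a neurotrophin, had 22.8, 32.4, 34.3 and 28.7 CPM after AMPH and 30.1, 30.4, 21.1 and 28.8 CPM after saline (0.06 ± 0.23). Per1, a clock gene that also responds to dopamine signalling, differed by -0.07 ± 0.08 and Cdk5, a kinase of striatal signalling, by -0.12 ± 0.10.

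Receptor genes came next. Of 21 glutamate receptor genes 14 were above 0 (median 0.0691) and of 13 GABA receptor genes 7 were (median 0.0312), none with p under 0.05. Gria1, an AMPA receptor subunit, had 185, 192, 199 and 184 CPM after AMPH and 159, 193, 192 and 181 CPM after saline (0.06 ± 0.10, 95% interval -0.16 to 0.27). Gria2 differed by 0.01 ± 0.14, the NMDA receptor gene Grin2b by 0.08 ± 0.11 and the metabotropic receptor gene Grm5 by 0.10 ± 0.16.

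The endocannabinoid genes held the lowest unadjusted p of the lists. Cnr1, the CB1 cannabinoid receptor, had 33.7, 26.4, 25.0 and 37.9 CPM after AMPH and 30.1, 13.1, 15 and 20.5 CPM after saline (0.79 ± 0.26, adjusted p = 0.999, edgeR); saline library Iso1-1 lies among the AMPH libraries. Faah, the enzyme that breaks down anandamide, had 18.6, 18.5, 13.0 and 14.8 CPM after AMPH and 35.6, 22.7, 26.2 and 18.7 CPM after saline (-0.67 ± 0.27, adjusted p = 0.999). Its groups do not overlap, though the highest AMPH library and the lowest saline library are next to equal. Oprm1, the mu opioid receptor, had 50.7, 56.9, 41.2 and 74.4 CPM after AMPH and 35.6, 40.0, 63.4 and 54.6 CPM after saline (0.37 ± 0.18, adjusted p = 0.999). Of the 21 opioid, peptide and cannabinoid genes tested, 9 were above 0, 2 had p under 0.05 and the median was -0.0202. Neither gene was called.

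Among 26 genes of voltage-gated potassium and calcium channels 21 were above 0 (median 0.0752), against 49.2% of all genes tested. Of the 26, 1 had p under 0.05: Kcna2, a potassium channel of axons, with 45.3, 47.9, 36.1 and 39.8 CPM after AMPH and 54.7, 58.5, 62.4 and 42.0 CPM after saline (-0.39 ± 0.19, adjusted p = 0.999, edgeR). Of 29 genes of axon and synapse adhesion 20 were above 0 (median 0.0617). Of 27 chromatin-modifying enzymes 20 were above 0 (median 0.0493) and all 27 had an interval within a 2-fold change. In this last list Hdac5, a histone deacetylase studied in drug reward, had 144, 147, 164 and 148 CPM after AMPH and 99.9, 148, 163 and 155 CPM after saline (0.11 ± 0.13), and Ehmt2, the methyltransferase G9a, differed by 0.10 ± 0.20.

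Markers of the other cells in the fraction did not separate the groups, and the summed level of each of the 26 lists overlapped between them. The lowest Benjamini-Hochberg adjusted p over all library measures was 0.904 (two-sided exact permutation tests). The smallest possible p before adjustment is 0.0286, so 1 list that fully separated the groups would not have passed after adjustment. Oligodendrocyte genes summed to 544 to 609 CPM after AMPH and 567 to 691 CPM after saline; of 15 tested 5 were above 0 (median -0.17) and none had p under 0.05. Olig2, a factor of the oligodendrocyte lineage, had 14.1, 13.1, 14.8 and 15.4 CPM after AMPH and 24.6, 26.3, 13.1 and 19.9 CPM after saline (-0.56 ± 0.28, adjusted p = 0.999, edgeR). Saline library Iso2-1 lies with the AMPH libraries there. Mag, a myelin protein, differed by 0.07 ± 0.27 and Mog, another, by -0.56 ± 0.34. Astrocyte genes summed to 493 to 529 CPM after AMPH and 484 to 549 CPM after saline. Microglia genes summed to 120 to 151 CPM after AMPH and 111 to 146 CPM after saline; among them Csf1r, a receptor these cells need, had 10.6, 16.1, 15.3 and 10.0 CPM after AMPH and 19.2, 24.5, 19.8 and 14.1 CPM after saline (-0.71 ± 0.29, adjusted p = 0.999). The groups overlap, and Cx3cr1, the fractalkine receptor of the same cells, differed by -0.28 ± 0.51. Endothelial and mural genes summed to 198 to 244 CPM after AMPH and 189 to 268 CPM after saline.

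Markers of neighbouring neurons were present too. Slc17a7, a vesicular glutamate transporter of cortical neurons, had 26.8, 23.8, 40.3 and 35.8 CPM after AMPH and 20.5, 29.2, 40.3 and 36.2 CPM after saline (0.07 ± 0.23). Chat, the enzyme of cholinergic interneurons, had 5.73, 4.08, 7.87 and 3.85 CPM after AMPH and 12.3, 6.56, 9.28 and 1.84 CPM after saline (-0.58 ± 0.51), and only 4 of 9 cholinergic genes passed the filter. Th, the enzyme of catecholamine synthesis, had 4.52, 6.66, 2.78 and 2.31 CPM after AMPH and 12.3, 6.56, 4.80 and 6.44 CPM after saline (-1.02 ± 0.49, adjusted p = 0.999, edgeR). The remaining list genes with p under 0.05 were Dnah11, a dynein of motile cilia, at 0.72 ± 0.29 (adjusted p = 0.999), and the respiratory enzyme gene Sdha at -0.46 ± 0.17 (adjusted p = 0.999).

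**Figure D5:**
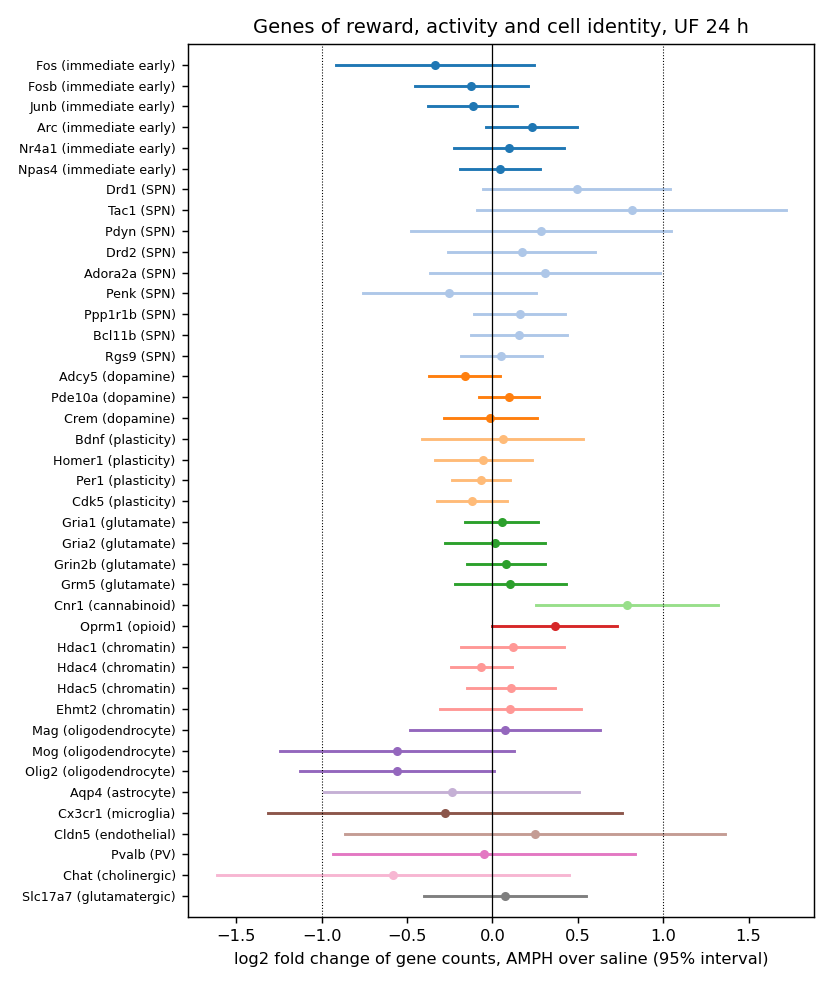
Log2 fold change of gene counts, AMPH over saline (points), with its 95% interval (lines) for 41 genes of the lists in UF at 24 h; dotted lines mark a 2-fold change either way. The interval of Cnr1 alone lies wholly on one side of 0, from 0.25 to 1.32, and no gene shown was called.

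The genes with the lowest p among those whose groups did not overlap are given by a rule of rank, and none of them was called. On the higher side, D030056L22Rik had 57.2, 70.2, 64.8 and 71.5 CPM after AMPH and 39.7, 46.0, 38.7 and 33.7 CPM after saline (0.74 ± 0.18, adjusted p = 0.999, edgeR). Psip1, a transcriptional coactivator, had 44.8, 38.9, 47.2 and 54.0 CPM after AMPH and 31.5, 29.8, 31.4 and 25.5 CPM after saline (0.69 ± 0.20). Both genes rest on 1 region, and in both the AMPH libraries all lie above the saline libraries. Also on this side were Sh3glb2, Slc20a1, Zc3h12c, Tada2a, Ulk3, Dpm2, Mtfr1, Phax and Fndc5, at 0.38 to 0.75. On the lower side after Chl1, Uck2, an enzyme of pyrimidine salvage, had 59.1, 73.2, 61.1 and 50.8 CPM after AMPH and 90.3, 93.1, 87.4 and 79.7 CPM after saline (-0.59 ± 0.16). Rpl10, a ribosomal protein gene, had 57.5, 54.7, 63.0 and 46.5 CPM after AMPH and 91.7, 66.8, 91.5 and 82.5 CPM after saline (-0.61 ± 0.17). Here every AMPH library was below every saline library. Tbc1d17, Samd15, Nanp, Arel1, Amdhd2, P4ha1, Mfsd14b, Coasy and Trabd2b followed, at -0.84 to -0.30. In IP the genes named here other than Chl1 differed by -0.11 to 0.24.

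Of single regions on the higher side, the one closest to a call was chr2:153509230-153509429 inside Nol4l, with 9.59, 11.2, 8.92 and 10.6 CPM after AMPH and 0, 1.33, 3.45 and 1.68 CPM after saline (2.54 ± 0.56, adjusted p = 0.0903, edgeR). The region at the start of Ntn3, a netrin gene, chr17:24209208-24209407, had 10.9, 7.88, 6.82 and 8.09 CPM after AMPH and 1.49, 0.665, 1.72 and 2.01 CPM after saline (2.50 ± 0.60, adjusted p = 0.215). These regions, and those on the lower side, were chosen among regions whose groups do not overlap. The gap between AMPH and saline libraries therefore follows from the choice. In IP the regions in Nol4l and at the Ntn3 start differed by 0.08 ± 0.46 and -0.93 ± 0.45. On the lower side, chr13:96023949-96024148 inside Sv2c, a synaptic vesicle protein gene of the basal ganglia, had 7.09, 10.5, 10.5 and 4.15 CPM after AMPH and 20.8, 21.9, 23.4 and 15.1 CPM after saline (-1.57 ± 0.36, adjusted p = 0.133). At chr4:64497808-64498007, which is 450,792 bp from Tnc, AMPH libraries had 4.98, 3.58, 7.35 and 5.39 CPM and saline libraries 10.4, 21.3, 50 and 10.1 CPM (-2.03 ± 0.44, adjusted p = 0.0809), with no overlap. It was called in 5 of 19 alternatives: without saline library Iso2-2 (adjusted p = 0.00103), without the Iso term (0.0041), with the replicate block (0.00573), with no count filter (0.00118) and with DESeq2 (0.045). The region in Nol4l was called without saline library Iso2-1 (adjusted p = 0.0141) and with no count filter (0.0228), and the one in Sv2c with DESeq2 (0.0273).

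Whether the AMPH effect differed between the unbound nuclei and the PV nuclei was asked with an interaction term over all 15 libraries of the 24 h table. An IP and a UF library may come from the same mouse, which the labels do not state. Every fit of the 15 libraries therefore treats them as unpaired. No region of 116361 (0% called) and no gene of 16555 (0% called) differed (edgeR); 5212 regions and 658 genes had p under 0.05 without adjustment. The lowest adjusted p was 0.513 for regions and 1 for genes. Without UF saline library Iso2-1 the term was called in 1 region and without IP AMPH library Iso1-1 in 2. Among the regions chosen by rank in UF, those at the Ntn3 start and inside Tmem135, chr7:89338549-89338748, came closest to a call of this term. The effect in UF minus that in IP was 3.49 ± 0.76 at the Ntn3 start and 1.99 ± 0.44 inside Tmem135. In IP alone 11 regions of 90202 (0.0122% called), all lower, and no gene of 16243 (0% called) were called after AMPH, with 608 genes at p under 0.05 without adjustment. Without IP saline library Iso2-3, the shallowest of the 15, no region was called there. The fold in IP rests on the Iso2 libraries, since all its saline libraries are Iso2.

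UF nuclei 60 min after a single dose were tested in their own table, whose regions were called separately and whose libraries are of other mice. No difference between AMPH and saline was called in the 170436 regions (0% called) or the 16892 genes (0% called, edgeR). Without adjustment, 6476 regions and 606 genes had p under 0.05. With the replicate number as a block, 6 regions and 1 gene were called higher after AMPH: Zfp804b, a zinc finger gene, at 0.56 ± 0.09 (adjusted p = 0.0283, 3 pairs). That the number marks a pair is uncertain: the deviations of same-numbered libraries correlated with r of 0.127 to 0.201, while some of unlike number did so with 0.468 and 0.722. At 60 min Fosb differed by -0.07 ± 0.10, Fos by -0.03 ± 0.12, Drd1 by -0.08 ± 0.22 and Cnr1 by -0.09 ± 0.14. The effect at 24 h minus that at 60 min was called in no gene of 16567 (0% called; 739 with p under 0.05 without adjustment); it was -0.05 ± 0.19 for Fosb, -0.32 ± 0.31 for Fos, 0.91 ± 0.29 for Cnr1 and -1.20 ± 0.50 for Chl1 (adjusted p = 0.997). Without UF AMPH library Iso2-1, 1 gene was called, Acacb.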

How the data were processed

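The authors deposited raw counts of reads per 200 bp region (mm10): 171130 regions at 24 h and 205848 at 60 min. The submitters' processing notes name MACS2 2.1.2, DESeq2 1.18.1 with R 3.4.4, deepTools, Bowtie2 2.3.4.3, cutadapt 1.8.3, bedtools 2.25.0 and FastQC 0.11.2; how regions were merged over libraries, and a Tn5 shift, are not given in the sources used here. The regions were chosen on these libraries, and 6 columns of another table were not used. Low totals widen the error of the saline libraries most, and the fold change SE holds this counting error.

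Counts were tested in R 4.3.3 with edgeR 4.0.16: TMM scaling, filterByExpr (minimum count 10, minimum total 15), robust quasi-likelihood F tests, two-sided, with an Iso term at 24 h and Benjamini-Hochberg adjustment over all regions or genes tested. The scripts were tested on simulated data. Fold changes are log2, AMPH over saline, and CPM are TMM-scaled. Gene counts are sums over regions that touch a protein-coding gene body, extended by 2 kb (21887 genes, RefSeq GRCm38.p6, GenomicRanges 1.54.1), so a region can count for several genes. Regions on chromosome 18 (3.3% of those tested) were tested and entered the gene sums. They were not sorted into the classes by distance from a start or a gene.

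Named genes and regions are those with the highest and lowest fold changes among called ones, filled up by lowest p, with logCPM of at least 4 for genes (12 each way) or 1.5 for regions (10 each way, 1 per gene) and groups that do not overlap; list genes may be named beside them. A gene chosen by this rule is not reported here. Ano2, called with overlapping groups, was chosen after its values were seen. The lists and comparisons were chosen with earlier results of these data known.

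No library is a copy of another: the chi-square per degree of freedom was 2.42 to 5.74 over the 12 pairs within a group. Libraries with the same number did not pair at 24 h. At 60 min the deviations of same-numbered UF libraries from their group means correlated with r of 0.137, 0.201 and 0.127, and some of unlike number more (up to 0.722), so the number was also fitted there as a block whose pairing is uncertain. Alternatives were DESeq2 1.42.0, limma 3.58.1 on loess-scaled values, total-count and RLE scaling, no filter, no Iso term, each Iso number alone, all 15 libraries, other gene windows and each library left out.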

Additional observations from a re-analysis of the deposited data

Results flagged for a closer look

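In groups of 4 libraries, 18 of 247 had their highest or lowest library apart from the other 3 by a gap above 0.829 of the range; chance gives about 1 in 20. Saline library Iso2-2 had the lowest share of counts in the chromosome 9 cluster, 0.405% against 0.622 to 0.654% in the other saline libraries. Saline library Iso1-1 had 0 counts in 35.3% of regions, against 16 to 18.5% in the other saline libraries. AMPH library Iso1-3 had 22.4% of its counts in the top 1% of regions, against 20.5 to 20.7% in the other AMPH libraries.

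Among summed list levels, AMPH library Iso1-3 had 783 CPM of D2 SPN genes against 837 to 846 CPM in the other AMPH libraries, and 2373 CPM of immediate early genes against 2267 to 2279 CPM. AMPH library Iso1-1 had 544 CPM of oligodendrocyte genes against 598 to 609 CPM, and 113 CPM of ependymal genes against 142 to 145 CPM. AMPH library Iso1-2 had 358 CPM of septal and pallidal genes against 288 to 293 CPM.

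Among genes, saline library Iso2-1 had 147 CPM of Fosb against 91.4 to 96.7 CPM in the other saline libraries. AMPH library Iso2-1 had 13.8 CPM of Pdyn, the dynorphin precursor, against 9.73 to 10.3 CPM, 381 CPM of Pde10a against 307 to 318 CPM, 33.1 CPM of Zc3h12c against 28.7 to 29.4 CPM and 11.2 CPM of Samd15 against 26.4 to 29.4 CPM in the other AMPH libraries. AMPH library Iso1-3 had 109 CPM of Gria2 against 87.9 to 90.0 CPM and 283 CPM of Tbc1d17 against 301 to 304 CPM. AMPH library Iso1-2 had 2.58 CPM of Cldn5, a tight junction gene, against 4.63 to 4.86 CPM. Among regions, saline library Iso2-1 had 1.38 CPM in the one inside Clmp, where the other saline libraries had 0, and saline library Iso1-1 had 5.95 CPM in the one inside Tnni3k, against 11 to 11.7 CPM.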

How the results depend on the processing

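Limits: 4 libraries a group, of unequal depth, leave most single regions without a bound under 2-fold, and calls in repeats cannot be placed on 1 copy. Whether reads of the regions called outside the cluster map to 1 place only was not tested. Under every alternative run, each tested region of the cluster on chromosome 9 had a lower fitted level after AMPH, and the number of its 42 regions called ranged from 3 to 42.

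The 34 region calls numbered 33 with total-count and 33 with RLE scaling, 31 with loess scaling and limma, 32 without the Iso term, 23 within Iso2 (10 of them among the 34) and 38 after thinning to equal totals, a setting chosen after seeing the data. They numbered 78 without the count filter, 100 within Iso1, 6 with all 15 libraries and 67 without saline libraries Iso1-1 and Iso2-1, which was chosen after seeing the data too. DESeq2 called 226, the 34 among them, 60 lower and 166 higher; each of the 166 had 0 counts in all 4 saline libraries, a median of 7 counts over the 8 libraries, and did not enter the edgeR test. Leaving out 1 library gave 30 to 69 regions (52 without AMPH Iso2-1, 69 without saline Iso2-1, 52 without saline Iso2-2) and 26 to 42 in the cluster, where 16 were called within Iso2 and 3 with all 15 libraries. Fitted as a replicate block, the shared number gave 49 regions, 32 of them among the 34, and 1 gene; same-numbered libraries correlated with r of 0.0795, 0.0574 and 0.0384 only.

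For genes, 1 was called with DESeq2, with the block and without flanks (Chl1 each time), 1 after thinning (Acacb), 6 within Iso1, and 0 to 2 with 1 library left out (Chl1 without AMPH Iso1-3, saline Iso1-2 or saline Iso2-1, and Chl1 and Acacb without AMPH Iso2-1). The interaction gave 0 to 2 regions with 1 library left out (1 without UF saline Iso2-1, 2 without IP AMPH Iso1-1) and no gene. At 60 min the replicate block gave 1 gene and 6 regions. The IP calls fell to 0 without IP saline Iso2-3. The effect at 24 h minus that at 60 min gave 0 to 1 gene (Acacb, without UF AMPH Iso2-1). The difference in total counts, 2.31 M, ranged from 1.77 to 3.11 M with 1 library left out and had exact permutation p = 0.0286 without AMPH Iso1-3.

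Of the named genes and regions, 1 changed direction: Arel1, at 0.20 when regions within 1 kb of gene ends were counted. In their comparisons with the alternatives, 912 kept direction and side of the threshold, 28 gained a call and 21 lost it. The gains are those of the region near Rab10 (11), the gene Chl1 (8) and the regions nearest Tnc (5), Nol4l (2), Sv2c (1) and Mdga2 (1). The losses concern the regions in Chl1, Hspa2 and Ano2, near Pak3, and at chr9:3034355; their causes were not tested.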

Other observations

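A pattern noticed after the values were seen concerns regions with low levels after AMPH outside the cluster. Of regions with logCPM of at least 3.5 and a log2 fold change of -1.9 or lower, 21 lie outside the cluster, the one in Ano2 among them, and 1 was called. In 18 of the 21, saline libraries Iso1-1 and Iso1-2 both stood above all others, with 37.2 to 711 CPM in Iso1-1 and 18.6 to 176 CPM in Iso1-2, against 0 to 52.5 CPM in the other 6 libraries. The 21 were picked by fold change in these same libraries, so high levels in some saline libraries follow from the choice. How often both Iso1 saline libraries stand highest over all tested regions was not counted. At chr1:12644711-12644910, AMPH libraries had 6.71, 12.4, 13.1 and 2.90 CPM and saline libraries 251, 47.9, 3.10 and 5.70 CPM (log2 fold change -3.16 ± 0.90, adjusted p = 1, edgeR). The Iso2 saline libraries lie with the AMPH libraries in this region.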
